A study of Mus musculus with 6 samples.

Results

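ATAC-seq, in which the Tn5 transposase inserts sequencing adapters into accessible DNA, was carried out on 2 myeloid populations sorted from SB28 tumours, and 16129 regions were called open in all 6 libraries. SB28 is a mouse glioma line, grown here as isogenic tumours in the brains of WT mice. The 6 peak lists, 1 per library, were merged wherever peaks overlapped by at least 1 base, which gave 87142 merged regions. A region is called shared when all 3 bone marrow derived macrophage (BMDM) lists and all 3 microglia (MG) lists put a peak in it, and 18.5% of the merged regions met that rule. The members were thus chosen by the authors' peak calls in these same libraries, so that membership and the heights behind it are given as descriptions.

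BMDM were sorted as F4/80+ CD11b+ CD45+ cells with low or absent LY6C, no LY6G and high CD49d. MG were sorted as F4/80+ CD11b+ cells with low CD45, low or absent LY6C, no LY6G and low or absent CD49d. Each group had 3 libraries, and by the labels the groups differ by these gates, with the same tumour line and genotype. The series asks how metabolism affects gene expression and function in these cells. No label ties a library to an animal of its own, so that the spread behind the p-values is that between libraries and may be technical in part. In sorted bulk samples, fewer cells with an open site and less opening of the site per cell cannot be told apart.

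Regions that stay accessible across cell types are mostly promoters of broadly expressed genes. Many of these promoters lie in CpG islands, stretches rich in unmethylated CpG dinucleotides, where factors of the SP/KLF, ETS, NRF1, NFY, CRE and YY1 families bind and nucleosomes are depleted around the start site. Sites that set a cell type apart are more often distal enhancers, which in macrophages carry PU.1, C/EBP, AP-1, RUNX and IRF motifs.

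The 9 promoters printed here stand for the kinds of sequence described here. Each is the 250 bases before a RefSeq start site (RefSeq, build GRCm38.p6, the reference that mm10 also represents), read 5′ to 3′ on the gene's strand, with matches to the searched motifs in capitals. The first 4 belong to broadly used genes in shared regions: Cycs (cytochrome c), Rpl37 (a protein of the large ribosomal subunit), Polr2a (the largest subunit of RNA polymerase II) and Jun (an AP-1 subunit). Cd68 encodes a lysosomal protein of macrophages. F10 (coagulation factor X), Mertk (a receptor tyrosine kinase for uptake of dying cells) and Rab40b (a RAB family GTPase) are shared regions that differed between the groups. Gfap (the astrocyte intermediate filament protein) had no listed peak at this window in any library and is shown for contrast.

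Cycs (chr6:50566570-50566819, minus strand): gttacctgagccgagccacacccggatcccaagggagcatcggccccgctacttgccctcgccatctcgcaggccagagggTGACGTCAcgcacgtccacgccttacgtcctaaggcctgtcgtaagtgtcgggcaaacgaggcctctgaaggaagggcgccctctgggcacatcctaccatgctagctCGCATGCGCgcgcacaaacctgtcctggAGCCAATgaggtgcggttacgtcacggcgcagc
Rpl37 (chr15:5116363-5116612, plus strand): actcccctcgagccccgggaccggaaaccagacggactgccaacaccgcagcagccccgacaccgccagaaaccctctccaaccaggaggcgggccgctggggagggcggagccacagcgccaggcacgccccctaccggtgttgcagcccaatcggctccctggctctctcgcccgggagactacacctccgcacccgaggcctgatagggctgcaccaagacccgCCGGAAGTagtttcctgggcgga
Polr2a (chr11:69758634-69758883, minus strand): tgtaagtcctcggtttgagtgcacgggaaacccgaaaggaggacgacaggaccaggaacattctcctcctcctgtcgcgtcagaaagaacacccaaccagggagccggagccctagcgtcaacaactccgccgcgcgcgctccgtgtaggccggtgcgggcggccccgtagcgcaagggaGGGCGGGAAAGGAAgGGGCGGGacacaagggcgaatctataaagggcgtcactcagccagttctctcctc
Jun (chr4:95052223-95052472, minus strand): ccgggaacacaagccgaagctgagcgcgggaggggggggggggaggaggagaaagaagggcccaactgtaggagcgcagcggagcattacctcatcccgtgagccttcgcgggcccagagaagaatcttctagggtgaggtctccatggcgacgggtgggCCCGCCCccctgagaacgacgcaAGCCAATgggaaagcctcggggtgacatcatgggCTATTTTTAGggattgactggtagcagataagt
Cd68 (chr11:69666171-69666420, minus strand): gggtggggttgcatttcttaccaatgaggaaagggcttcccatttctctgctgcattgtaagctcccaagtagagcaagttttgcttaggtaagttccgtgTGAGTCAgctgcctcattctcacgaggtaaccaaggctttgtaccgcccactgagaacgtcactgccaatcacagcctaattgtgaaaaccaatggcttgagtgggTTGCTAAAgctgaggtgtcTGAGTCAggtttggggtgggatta
F10 (chr8:13037058-13037307, plus strand): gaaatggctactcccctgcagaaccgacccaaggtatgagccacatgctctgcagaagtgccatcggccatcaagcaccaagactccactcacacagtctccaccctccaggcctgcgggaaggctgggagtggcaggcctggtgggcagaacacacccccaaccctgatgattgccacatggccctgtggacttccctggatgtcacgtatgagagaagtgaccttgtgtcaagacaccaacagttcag
Mertk (chr2:128698665-128698914, plus strand): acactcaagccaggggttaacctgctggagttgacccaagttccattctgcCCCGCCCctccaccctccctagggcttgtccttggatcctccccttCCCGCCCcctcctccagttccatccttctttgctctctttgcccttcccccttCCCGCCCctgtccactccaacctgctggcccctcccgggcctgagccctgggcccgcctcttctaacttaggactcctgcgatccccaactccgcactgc
Rab40b (chr11:121388252-121388501, minus strand): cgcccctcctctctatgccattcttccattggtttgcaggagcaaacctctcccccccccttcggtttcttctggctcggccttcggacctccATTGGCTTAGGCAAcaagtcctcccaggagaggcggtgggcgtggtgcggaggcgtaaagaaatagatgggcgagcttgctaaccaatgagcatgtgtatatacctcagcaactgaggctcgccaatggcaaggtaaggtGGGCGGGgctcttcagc
Gfap (chr11:102897201-102897450, minus strand): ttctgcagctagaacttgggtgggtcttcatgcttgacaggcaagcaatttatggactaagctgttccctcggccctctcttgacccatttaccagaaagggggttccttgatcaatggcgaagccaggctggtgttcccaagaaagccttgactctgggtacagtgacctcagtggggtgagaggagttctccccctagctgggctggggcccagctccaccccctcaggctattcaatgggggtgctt

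The Cycs window holds a CRE palindrome (TGACGTCA) from base -169 to -162, an NRF1 match on the opposite strand from -61 to -53 and an NFY match (AGCCAAT) from -33 to -27, where -1 is the base before the start. Rpl37 holds the ETS letters CCGGAAGT from -23 to -16. Polr2a holds the GC box GGGCGGG from -70 to -64 and from -55 to -49, and the first of these overlaps a PU.1-IRF match (GGAANNGAA) from -65 to -57. Jun holds a GC box on the opposite strand, an NFY match and a MEF2 match. Cd68 holds the AP-1 letters TGANTCA at -149 to -143 and at -24 to -18 and a C/EBP match (TTGCNNAA) between them, from -43 to -36. Mertk holds 3 GC boxes on the opposite strand, and Rab40b holds a GC box and overlapping NFY and C/EBP matches. None of the 13 motifs searched matched in the F10 or Gfap window.

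CpG dinucleotides numbered 23 in the Cycs window, 23 in Polr2a, 21 in Rpl37, 15 in Jun, 11 in Rab40b, 7 in Mertk, 4 in Cd68, 4 in F10 and 2 in Gfap. Over the RefSeq windows in shared regions the median was 18 CpG (5th to 95th percentile 4 to 36), against 3 (0 to 13) over those with no listed peak. Cycs, Polr2a and Rpl37 lie above that median, and the macrophage promoters Cd68 and F10 lie at the 5th percentile.

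Shared regions were wider than other regions, and the summits of the 6 libraries lay near each other. Their median width was 1155 bases (230 to 6410), against 760 bases for regions in 5 lists and 316 bases for regions in 1 list, and together they covered 19.7 Mb. A merged region spans all its peaks, so that this width depends in part on the number of lists by construction. Within single lists, peaks in shared regions had median widths of 504 to 1064 bases, against 285 to 479 bases for the other peaks. In 91.1% of shared regions each library had exactly 1 peak. The 6 summits of a region spanned a median of 109 bases (quartiles 66 and 204), and 46.2% of regions had all summits within 100 bases. The median spread was 112 bases at promoters and 105 bases elsewhere.

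The BMDM 3 list set the edge of the set. It held 17741 peaks, against 33982 in BMDM 1, 52631 in BMDM 2, 50217 in MG 1, 70739 in MG 2 and 52566 in MG 3. Of its peaks 93.9% lay in shared regions, against 49.4% and 31.4% for BMDM 1 and BMDM 2 and 32.8%, 23.2% and 31.8% for MG 1, MG 2 and MG 3. BMDM 3 had the weakest q value in 97.4% of shared regions. Of the 10749 regions called in exactly 5 lists, 10305 (95.9%) lacked only a BMDM 3 peak. BMDM 3 also had the fewest reads in peaks, 4910448, against 7167211 and 19727511 in the other BMDM libraries and 12531808 to 23601865 in MG. Its listed peaks in shared regions had the lowest median fold enrichment, 5.54, against 9.69 and 8.36 in BMDM 1 and BMDM 2 and 8.27 to 10.6 in MG. The parts of depth and enrichment in its short list were not tested. Just inside the rule, in the 1103 shared regions whose weakest −log10 q was under 5, the median BMDM 3 value was 69 reads, or 125 normalized counts. Just outside it, in regions that lacked only BMDM 3, the median was 46 reads, or 83.3 normalized counts. Without the BMDM 3 list the set held 26434 regions, and values without it are given beside each result that it moves.

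**Figure D1:**
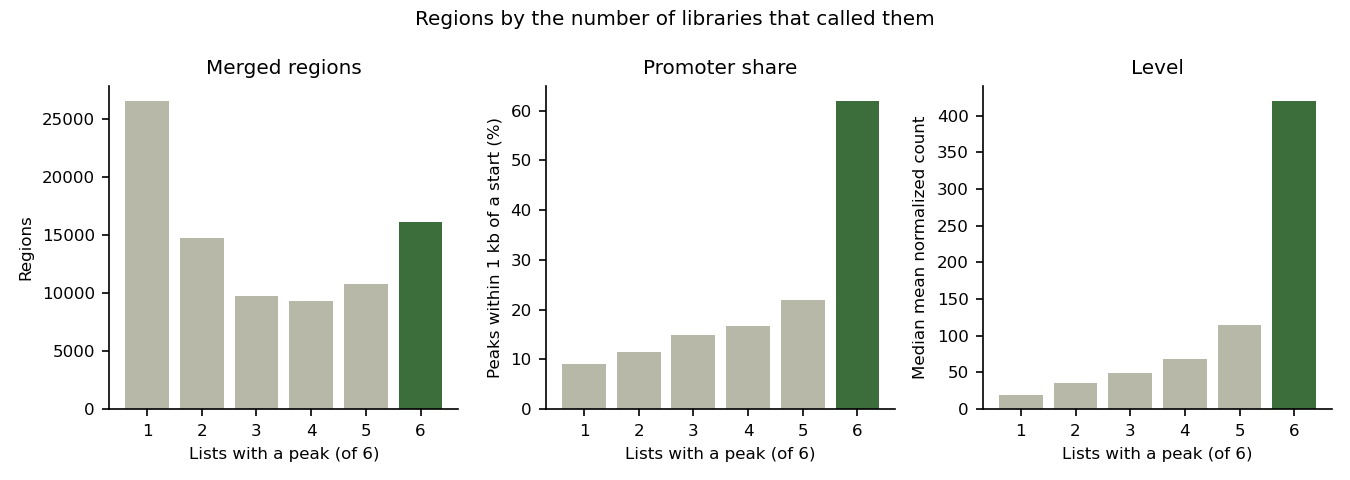
Merged regions by the number of lists (of 6) with a peak, with the share of their annotated peaks within 1 kb of a start site (%) and the median over peaks of the mean normalized count. Bars are counts, shares and medians over regions, with no error; the 16129 regions in all 6 lists stand out with 61.9% promoters and a median of 420 normalized counts.

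Most shared regions were promoters. Of the 16129 regions 15630 overlapped 1 peak each of the authors' table, which annotates peaks to genes, and 9673 of these peaks (61.9%) lay within 1 kb of a start site. That share was 21.9% for regions in 5 lists and 9.03% for regions in 1 list, and 46.3% for the larger set that does not ask for BMDM 3. Counted the other way, 49.1% of all promoter peaks in the table were shared, against 6.54% of peaks in later introns and 8.39% of intergenic peaks. The remaining shared peaks were intergenic (2286), in later introns (1255), in first introns (966), in exons or untranslated regions (787) or 1 to 3 kb from a start (663). Promoter peaks were the widest class, with a median of 1329 bases, against 910 to 1027 bases in the other classes.

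Shared promoters were richer in GC and CpG than other promoters, and sequence was no part of the rule. RefSeq gives 32851 promoter windows, each from 250 bases before to 50 bases after a start, and 10748 of them, of 9244 genes, overlapped a shared region. Their median GC content was 62.0% (quartiles 56.0% and 68.3%), against 58.7% for windows in 5 lists, 56.7% for windows in 1 to 4 lists and 47.3% for windows in no list. The ratio of observed to expected CpG had a median of 0.806 in shared windows, against 0.601, 0.452 and 0.205 in those 3 classes. Windows with a ratio over 0.6 and GC over 50% made up 76.2% of shared windows and 5.68% of those in no list. A RefSeq start on the opposite strand lay within 1000 bases upstream of 25.3% of shared promoters, against 8.72% of those in 5 lists and 3.71% of those in no list. The 1528 windows added when BMDM 3 was not asked for had a median CpG ratio of 0.605, between shared windows and the rest.

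**Figure D2:**
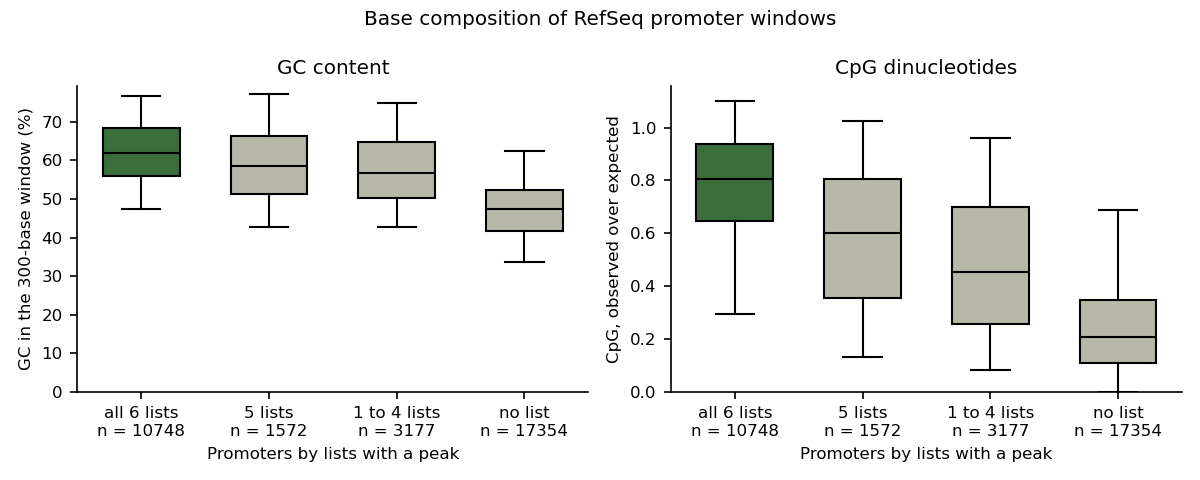
GC content (%) and CpG ratio of the 300-base RefSeq promoter windows, by how many lists have a peak there. Boxes show quartiles and the median, whiskers the 5th and 95th percentiles over windows; the median CpG ratio is 0.806 in the 10748 shared windows and 0.205 in the 17354 windows with no listed peak.

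Motifs of broadly acting factors were more frequent in shared promoters than in promoters at large. Those of AP-1, C/EBP and RUNX were less frequent, but this did not hold among CpG-rich promoters alone. There AP-1 was nearly level between shared and other windows, and C/EBP and RUNX were slightly more frequent in shared ones. Each motif was searched in the 300-base window on both strands, and a match is a description of letters, not of binding. The GC box GGGCGGG, read by SP and KLF factors, was in 50.7% of shared windows, against 7.69% of windows in no list and 25.6% of all windows. The ETS letters CCGGAAGT were in 9.72% of shared windows, against 3.12% in 5 lists, 0.738% in no list and 3.89% of all windows. NRF1 (GCGCATGCG) was in 4.34%, against 0.334% of windows in no list and 1.75% of all, and YY1 (AAGATGGC) in 5.15%, against 1.64% and 2.75%. NFY (AGCCAAT) was in 11.9%, against 5.62% and 7.86%, and CRE in 3.62%, against 0.720% and 1.79%.

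Among CpG-rich windows alone (the ratio over 0.6 and GC over 50%), the ETS letters were in 10.9% of the 8189 shared windows, against 1.97% of the 2746 other windows. NRF1 was then in 5.20% and 1.89%, YY1 in 5.75% and 2.15%, and the GC box in 58.3% and 52.1%. AP-1 was in 3.14% and 3.42% of these windows, C/EBP in 5.96% and 5.32%, and RUNX in 2.65% and 2.22%. The PU.1-IRF composite was in 6.19% and 5.21% of them, and the PU.1 letters in 2.67% and 1.71%. Over windows of any composition, the AP-1 letters were in 4.46% of shared windows, against 9.74% of windows in no list, C/EBP in 7.61% against 10.8% of all windows, and RUNX (TGTGGTT) in 3.50% against 5.27% of all windows. Against windows in no list, the PU.1 letters GAGGAAGT were in 3.31% against 2.97%, the PU.1-IRF composite in 6.90% against 9.24%, CTCF in 0.968% against 0.0864% and MEF2 in 0.279% against 0.686%. Matches also differed in place: the median position in shared windows, with bases before the start counted as negative, was -26.5 for ETS, -51.0 for NRF1, -62.0 for the GC box and 2.5 for YY1. AP-1 matches had their median at -114.0. The windows added without BMDM 3 held the ETS letters in 3.14% and AP-1 in 7.20% of cases.

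Genes for the basic machinery of the cell had their promoters in shared regions without exception among the genes matched. All 58 cytosolic ribosomal protein genes with a RefSeq window had it in a shared region, as did all 25 proteasome genes, all 30 genes of oxidative phosphorylation, all 23 of RNA polymerase II and splicing, and all 7 of CTCF and cohesin. In that order the full lists hold 79, 31, 42, 30 and 10 genes, and the rest had no matched window. Over all 27025 RefSeq genes the share was 34.2%, and over the 17492 protein-coding genes 46.1%. RefSeq windows are used for these counts because the authors' table gives each peak to 1 gene, so that in a divergent pair 1 gene goes without. By the table's annotation 66 of 72 ribosomal genes and 35 of 39 oxidative phosphorylation genes had a shared promoter peak, against 9053 (48.3%) of all 18755 genes. Rpl3, which had no matched window, had a promoter peak in the MG 2 list only. The lists were written with earlier results of these data known.

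The shared peaks of these 5 lists had median levels of 480 to 923 normalized counts, around the median of 568 over all shared promoters, and the examples are among the highest of each list. Rps19, of the small ribosomal subunit, had 1908, 1561 and 813 normalized counts in BMDM 1, 2 and 3 and 2271, 1127 and 1489 in MG 1, 2 and 3. Psmb3, a core subunit of the proteasome, had 1379, 1169 and 735 in BMDM and 1641, 1220 and 1115 in MG. Cycs had 1115, 937 and 538 in BMDM and 1276, 896 and 979 in MG. Across Rps19, Psmb3 and Cycs BMDM 3 was the lowest and MG 1 the highest library at each promoter, and the groups overlapped. U2af2, a splicing factor subunit, had the highest level of its list, with 2908, 2454 and 1371 in BMDM and 3815, 1804 and 2433 in MG. Nipbl, which loads cohesin onto DNA, had 1694, 1669 and 1013 in BMDM, below 2429, 2641 and 2150 in MG, with an adjusted p of 0.223 (limma).

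Glycolysis and lactate genes were mostly shared too. Of 26 genes 22 had a shared promoter window, the other four being Pfkm, Aldoc and Ldhb, each called in 5 lists, and Eno3, called in none. Aldoa (aldolase) had 2874, 1542 and 1207 normalized counts in BMDM and 2310, 1210 and 1577 in MG. Gapdh had 2041, 1474 and 944 in BMDM and 1949, 2025 and 1657 in MG. Pkm (pyruvate kinase) had 1440, 1467 and 730 in BMDM and 1716, 1175 and 1225 in MG. Hk2 (hexokinase) had 1615, 1116 and 640 in BMDM and 1560, 1198 and 1256 in MG, and Slc16a3, a lactate exporter, had 536, 404 and 293 in BMDM and 462, 354 and 374 in MG. All 5 promoters overlapped between the groups. Of the list's 41 shared peaks limma called 0 in either direction, and 6 (14.6%) had an unadjusted p under 0.05. Over all tested peaks 5.33% were called higher in BMDM and 1.54% in MG, over all shared peaks 2.76% and 1.05%, and 16.4% of shared peaks had an unadjusted p under 0.05. The list's median log2 difference was -0.04 relative to all peaks.

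Immediate early genes, which respond within minutes to stimuli such as cell dissociation, were shared at nearly every promoter. All 23 genes had a shared promoter peak in the table, and 18 of 20 RefSeq windows were shared, the other two being those of Jund and Zfp36. Their 83 shared peaks had a median of 857 normalized counts, against 420 over all shared peaks. Zfp36 (an mRNA decay factor) had 6596, 4492 and 2716 normalized counts in BMDM and 5466, 3015 and 3534 in MG, Egr1 4412, 2775 and 1870 in BMDM and 4208, 2512 and 3079 in MG, and Jun 3670, 2646 and 1578 in BMDM and 4522, 2337 and 2944 in MG. The libraries of the groups overlapped at all 3. Limma called 0 of the 83 peaks, beside the 2.76% of all shared peaks called higher in BMDM and the 1.05% called higher in MG. Of the 83 peaks 2 (2.41%) had an unadjusted p under 0.05, beside the 16.4% of all shared peaks.

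**Figure D3:**
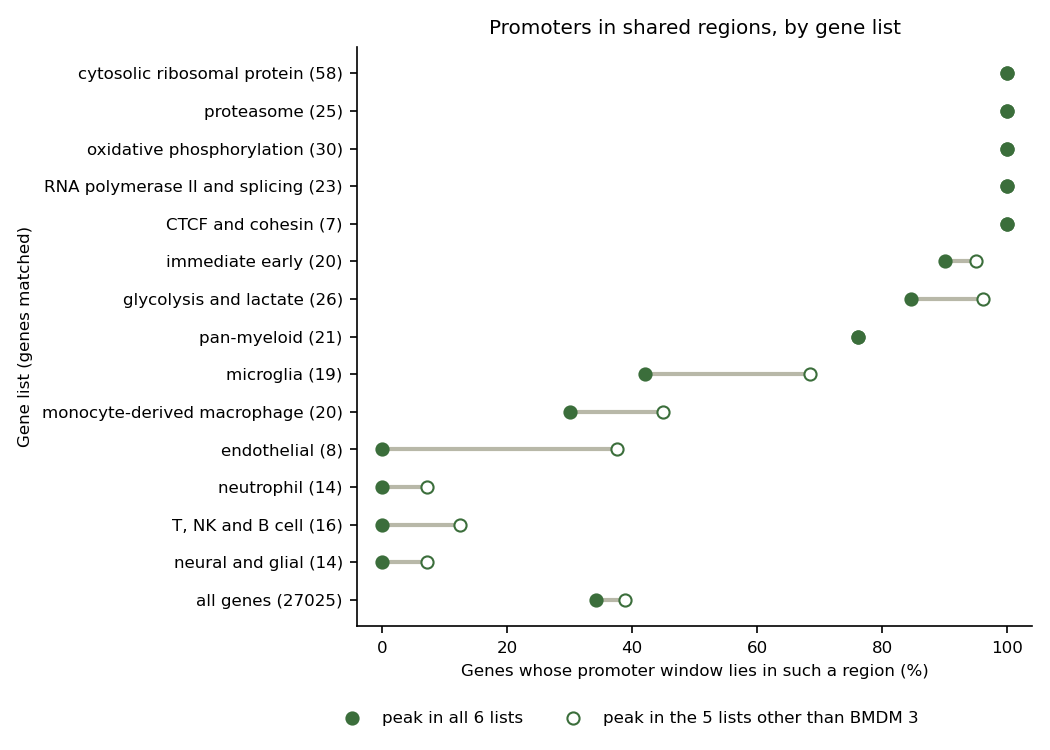
Share (%) of the genes of each list whose RefSeq promoter window lies in a region called in all 6 lists (filled) or in the 5 lists other than BMDM 3 (open), with the number of genes matched. The machinery lists stand at 100%, pan-myeloid genes at 76.2%, microglia genes at 42.1% and lists of cell types outside the gates at 0 when all 6 lists are asked for, against 34.2% over all genes.

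Most genes of the myeloid lineage had shared promoters. Of 21 pan-myeloid genes matched 16 had a shared promoter window, with 5 (Itgam, Aif1, Lyz2, Cybb and Ctss) called there in 0 to 4 lists. Itgam, which encodes the sorted protein CD11b, and Aif1 had a shared promoter peak at another start by the table's annotation. Spi1, the gene of PU.1, had 1043, 572 and 455 normalized counts at its promoter in BMDM and 1018, 384 and 534 in MG. Cebpb had 1571, 1387 and 933 in BMDM and 1755, 1031 and 1107 in MG, and Laptm5, a lysosomal membrane protein of blood cells, 1567, 1260 and 793 in BMDM and 1616, 620 and 926 in MG. The groups overlapped at all 3 genes.

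Of genes that mark 1 of the populations, fewer promoters were shared. For the microglia list 8 of 19 matched promoters were shared: Olfml3, Cst3, Trem2, Bhlhe41, Mef2c, Tgfbr1, Gpr84 and Rhob. With BMDM 3 not asked for, 13 of 19 (68.4%) were, against 76.2% of pan-myeloid genes and 38.8% of all RefSeq genes. The microglial factor Sall1 was called in 5 lists and lacked only BMDM 3. P2ry13, Sall1, Sall3, Siglech, Gpr34, Fcrls, Sparc and Slc2a5 had no shared region at any of their peaks. For the monocyte-derived macrophage list 6 of 20 were shared (Itga4, F10, S100a6, Emilin2, Vim and Nr4a1), and 9 without BMDM 3, while Ly6c2, Hp, Clec4e, S100a4 and Lyz1 were among those with no shared region. Itga4 encodes CD49d, on which the cells were sorted. Its promoter had 2065, 1066 and 853 normalized counts in BMDM, all above 524, 562 and 530 in MG, with an adjusted p of 0.0821 (limma).

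No promoter window of the neutrophil (14 genes), T, NK and B cell (16), neural and glial (14) or endothelial (8) lists was shared, and 10, 6, 6 and 5 of these were called in no list. With BMDM 3 not asked for, 1, 2, 1 and 3 of them were. By the table's annotation 4 such genes had a shared peak within 1 kb of a start: Ltf, Cd3d, Il7r and Vwf. Shared peaks farther than 1 kb from a start numbered 4 for the neutrophil list, 6 for the lymphoid, 7 for the neural and glial and 11 for the endothelial list. An intergenic or intronic peak is assigned to its nearest gene, which need not be the gene it acts on.

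**Figure D4:**
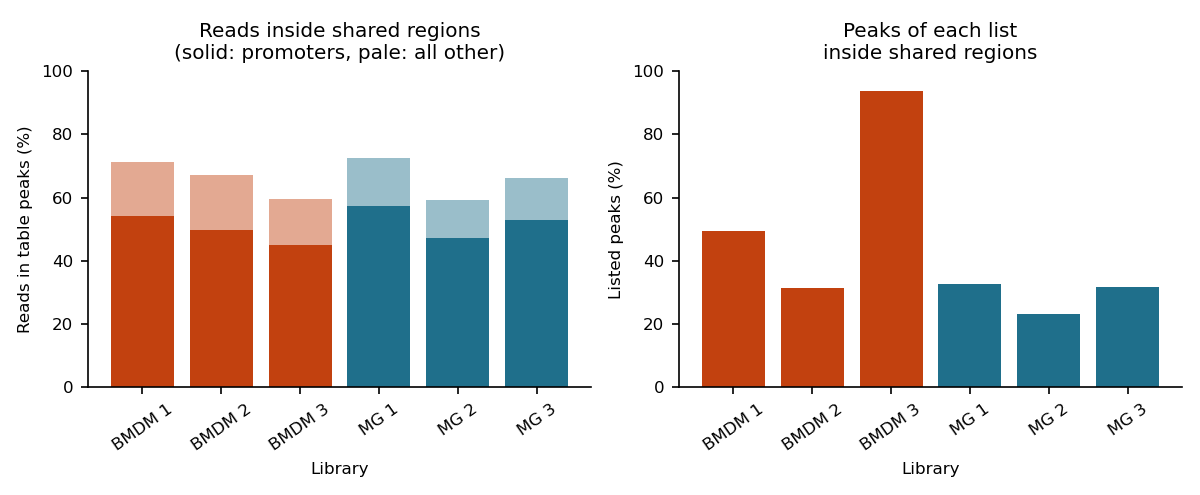
Left, the share (%) of each library's reads in table peaks that fell inside shared regions, split into promoter peaks (solid) and all other shared peaks (pale); right, the share (%) of each library's listed peaks that lay in shared regions. Reads inside shared regions make up 59.7% to 71.3% in BMDM and 59.2% to 72.6% in MG, while 93.9% of the BMDM 3 list lies there.

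Shared regions took most of the reads. They held 16.8% of the table peaks and 71.3%, 67.1% and 59.7% of reads in peaks in BMDM 1, 2 and 3, and 72.6%, 59.2% and 66.2% in MG 1, 2 and 3. The groups overlapped in this share, and the rule used the same reads. Promoters alone took 54.2%, 49.8% and 45.1% in BMDM and 57.4%, 47.3% and 53.0% in MG. Shared peaks away from promoters took 17.1%, 17.3% and 14.6% in BMDM and 15.2%, 11.8% and 13.1% in MG. The median shared peak held 232, 674 and 145 reads in the BMDM libraries and 688, 744 and 420 in the MG libraries, against 15, 49, 20, 32, 69 and 32 reads over the other peaks. The lowest value of any shared peak in any library was 17 reads.

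Libraries differed more than groups in the overall height of shared regions. Relative to all tested peaks, the median log2 deviation of shared peaks from their mean over libraries was 0.23, 0.05 and -0.58 in BMDM 1, 2 and 3 and 0.41, -0.12 and -0.01 in MG 1, 2 and 3. BMDM 3 was low and MG 1 high, and the groups overlapped. The median shared promoter varied over the 6 libraries by 1.22 on the log2 scale (5th to 95th percentile 0.79 to 1.77), and other shared peaks by 1.40 (0.79 to 2.51).

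The highest shared peaks were at Pisd-ps3, Ppp2r3d, Kdm6b, Mnt, Plekhg2 and Zfp36. Pisd-ps3 is a pseudogene on an unplaced contig with copies elsewhere in the genome, so that the authors' alignment could split or pile up its reads and its 13199, 9557 and 7491 normalized counts in BMDM and 11574, 13236 and 12752 in MG are uncertain. Kdm6b, a demethylase of histone H3 lysine 27, had 6870, 4670 and 3188 in BMDM and 6561, 3459 and 4137 in MG at a peak 1536 bases from a start. Mnt, a repressor that pairs with MAX, had 7189, 4310 and 2808 in BMDM and 6354, 3387 and 4205 in MG. Plekhg2, which neighbours Zfp36 on chromosome 7, had 6368, 3804 and 2745 in BMDM and 7450, 2982 and 4079 in MG. BMDM 1 and MG 1 were the highest libraries of their groups at Kdm6b, Mnt and Plekhg2, the groups overlapped, and no difference passed the test.

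The most even promoters were far lower. Naip5, an inflammasome sensor with near-identical family members whose reads may be split, had 85.3, 84.8 and 76.1 normalized counts in BMDM and 75.4, 76.0 and 74.8 in MG, a range of 0.19 on the log2 scale. Zfp169, a zinc finger protein gene, had 315, 278 and 263 in BMDM and 314, 280 and 307 in MG. Ehmt2, a methyltransferase of histone H3 lysine 9, had 129, 120 and 114 in BMDM and 128, 135 and 139 in MG, and Cd46 (a complement regulator) and Mideas (a histone deacetylase complex protein) ranged by 0.28 and 0.33. These promoters were chosen for their small range, so that the range is a description.

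Of the 15630 shared peaks 431 (2.76%) were called higher in BMDM, where 5.33% of all 87944 tested peaks were, and 164 (1.05%) were called higher in MG, where 1.54% were. Calls are limma tests of log2(normalized count + 1) with Benjamini-Hochberg adjusted p under 0.05 over all peaks, and every shared peak passed the minimum mean of 10. Since the rule drops regions that are closed in either group, nothing is read from these shares beside the background. The median difference over all tested peaks was -0.14, so that differences are given relative to it. The p-values and calls are of the difference before that median was taken off, which at Ptchd3 was 2.50, where the relative one was 2.64. In the authors' deposited table, 921 shared peaks were higher in BMDM, against 9.06% of all peaks, and 463 were higher in MG, against 5.38%. The calls depend on BMDM 1, BMDM 2 and MG 3: without any 1 of these, and with voom weights, no shared peak was called in either direction (lowest adjusted p 0.133, 0.185, 0.0793 and 0.0505 with limma), while 1995, 1823, 1433 and 2540 shared peaks had an unadjusted p under 0.05, against 2567 with all libraries. Leaving out BMDM 3 gave 556 calls higher in BMDM and 64 in MG, leaving out MG 1 gave 1292 and 370, and leaving out MG 2 gave 621 and 206.

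The calls differed by annotation class, among shared peaks as among all tested peaks. Of the 5957 shared peaks away from promoters, 379 (6.36%) were higher in BMDM and 46 (0.772%) in MG, with a median relative difference of 0.30. Over all tested peaks away from promoters the shares were close to these, 6.24% and 1.05%, and the median was 0.10. Of the 9673 shared promoters, 52 (0.538%) were higher in BMDM and 118 (1.22%) in MG, with a median of -0.18. Over all tested promoter peaks 2.12% and 3.25% were called and the median was -0.18. The split by class is thus not particular to shared regions. The promoter split leaned less to MG with TMM factors, where 100 were higher in BMDM and 125 in MG, and with loess normalization, where 425 were higher in BMDM and 471 in MG and the promoter median was 0.02. It was 0.02 without BMDM 3 as well, with 53 promoters higher in BMDM and 52 in MG. The median away from promoters was above 0 under every alternative run, at 0.11 to 0.50.

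**Figure D5:**
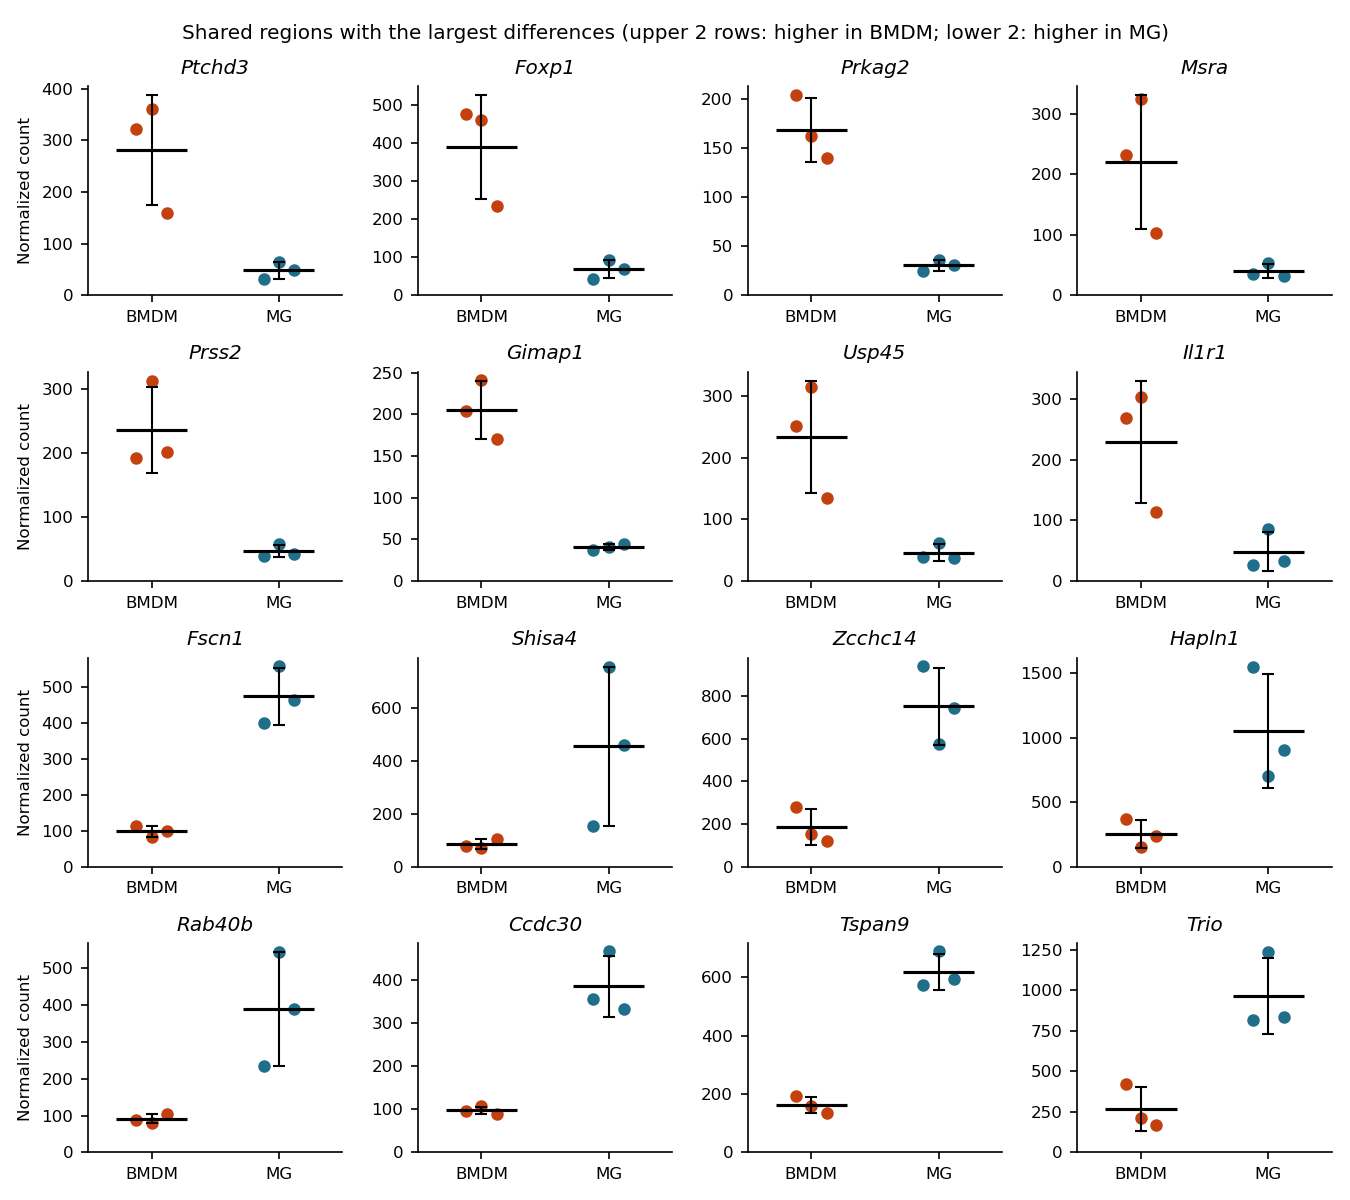
Normalized count in each library (points) with the mean and SD of the 3 libraries per group (line and bars), for the 8 shared peaks with the largest difference in each direction by the naming rule, each on its own axis from 0. BMDM stand left and MG right; the groups do not overlap at any of the 16 peaks, which were chosen for that.

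Shared peaks with the largest rise in BMDM were mostly distal. A peak near Ptchd3 had 321, 361 and 159 normalized counts in BMDM, against 30.9, 64.0 and 48.6 in MG, a relative log2 difference of 2.64 ± 0.41 (SE, n = 3 libraries per group, limma adjusted p = 0.0260). Foxp1, a forkhead transcription factor gene, had 478, 460 and 234 in BMDM, against 43.6, 91.8 and 69.0 in MG, at a start inside the gene (2.63 ± 0.39, adjusted p = 0.0260 with limma). Prkag2, for a regulatory subunit of AMP-activated kinase, had 204, 162 and 140 in BMDM, against 24.6, 36.1 and 31.1 in MG, in a later intron. Il1r1, the receptor of interleukin 1, had 270, 303 and 114 in BMDM, against 27.0, 85.3 and 33.0 in MG, at 2.42 ± 0.51 with the widest error of the 8 (adjusted p = 0.0335 with limma). BMDM 3 was the lowest BMDM library at all of these 4, and still above every MG library.

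Peaks near Msra, Prss2 and Gimap1 rose by 2.44 and one annotated to Usp45, which lies in Ccnc, by 2.42. The peak assigned to Prss2, a trypsin gene, lies inside the T cell receptor beta locus (RefSeq Tcrb, chr6:40891296-41558371), 6006 bases from the constant gene Trbc2 and 2633 bases from Trbv31. It had 192, 313 and 201 normalized counts in BMDM, against 38.9, 57.4 and 42.8 in MG. Gimap1 belongs to a family of GTPases of lymphocytes, and the peak at -5554 bases from its start had 204, 241 and 170 in BMDM, against 37.3, 40.5 and 43.7 in MG. Summed over all their table peaks, the 20 T, NK and B cell genes had 8754, 10842 and 7007 normalized counts in BMDM and 7774, 7692 and 6846 in MG, ranges that overlap. Of the 8 shared peaks of that list limma called 0, with 1 at an unadjusted p under 0.05. Over all shared peaks 2.76% were called higher in BMDM and 1.05% in MG. Promoters of the T, NK and B cell list, most of them outside the shared regions, gave another picture. Sums took 1 promoter peak for each of the 15 genes with a tested one, Cd3d and Il7r among them. They were 2162, 2639 and 1618 in BMDM, against 1550, 1582 and 1492 in MG. Of these the Cd3d peak held 621, 622 and 337 in BMDM and 420, 226 and 336 in MG. The RefSeq window of Cd3d was called in no list, and without this peak the sums of the groups overlap. Limma called 6 of these 15 promoters higher in BMDM and 0 in MG, against 2.12% and 3.25% of all tested promoters. The 6 were Cd3e, Zap70, Ms4a1, Ncr1, Prf1 and Il2rb. Ncr1, with an MG mean of 6.99 normalized counts, reached the minimum mean of 10 only through BMDM, and Ms4a1 had an MG mean of 10.2. Promoters of Lck, Tcf7, Ebf1 and Pax5 went the other way, at -0.62, -0.71, -0.67 and -0.30, and were not called. The Cd3e promoter, of a chain of the T cell receptor complex, had 87.3, 110 and 47.1 normalized counts in BMDM, against 8.73, 20.8 and 11.7 in MG. Cd3g, Cd8a and Cd79a had no table peak. The part of lymphoid cells in the Prss2 and Gimap1 peaks was not tested.

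Shared peaks with the largest fall in BMDM, that is those higher in MG, were promoters in 5 of 8 cases. A peak 3959 bases from the start of Fscn1, which encodes the actin-bundling protein fascin, had 113, 81.6 and 99.6 normalized counts in BMDM, against 401, 558 and 464 in MG (-2.12 ± 0.30, adjusted p = 0.0260 with limma). The Shisa4 promoter had 79.3, 69.3 and 105 in BMDM, against 152, 752 and 458 in MG, and the Rab40b promoter 89.3, 80.9 and 105 in BMDM, against 233, 544 and 389 in MG. Zcchc14 and Hapln1 had MG 1 as their highest library: the Zcchc14 promoter had 282, 152 and 121 in BMDM, against 938, 577 and 742 in MG, and a peak at -154701 bases from Hapln1, a link protein of hyaluronan, had 369, 151 and 235 in BMDM, against 1552, 701 and 909 in MG. The Ccdc30 and Tspan9 promoters and a first-intron peak of Trio fell by 1.83, 1.79 and 1.79, with SEs of 0.29, 0.29 and 0.39.

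MG 2 was the highest library at 6 of these 8 peaks (all but Zcchc14 and Hapln1), and it was also the highest for genes of neural and glial cells. The 20 genes of that list summed to 8764, 8479 and 7899 normalized counts in BMDM and 11350, 22996 and 15196 in MG. At the promoter of Sox10, which defines oligodendroglia and is in no shared region, the values were 37.7, 55.7 and 83.3 in BMDM and 65.1, 1102 and 518 in MG. Of the list's 16 tested promoters, none of them shared, limma called 3 (Slc1a3, Pdgfra and Nova1) for MG and 0 for BMDM. Among all tested promoters 3.25% passed on the MG side and 2.12% on the BMDM side. Of the list's 7 shared peaks 2 passed on the MG side and 0 on the BMDM side, beside 1.05% and 2.76% of all shared peaks. One, near the myelin gene Mog, had 137, 90.6 and 123 in BMDM, against 479, 406 and 389 in MG. The other, near the glutamate transporter gene Slc1a3, had 131, 120 and 94.2 in BMDM, against 426, 379 and 338 in MG. At both of these MG 1 was the highest library, although MG 1 had the lowest sum of the list among MG. The part of neural and glial cells in these peaks was not tested.

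Other list members that passed the test, named after their values were seen, were few, and their counts stand beside the 2.76% of all shared peaks called higher in BMDM and the 1.05% called higher in MG. Of 30 shared peaks of the monocyte-derived macrophage list 3 were higher in BMDM and 0 in MG, with a median of 0.62. F10 had 714, 681 and 342 normalized counts in BMDM, against 125, 127 and 123 in MG, at the promoter printed above (2.26 ± 0.35, adjusted p = 0.0260 with limma). The other two were distal peaks of Clec4d and Plac8, which rose by 1.86 and 1.47. Of 28 shared peaks of the microglia list 1 was higher in BMDM and 3 in MG, with a median of -0.33. Bhlhe41, a basic helix-loop-helix factor gene, had 305, 221 and 194 at its promoter in BMDM, against 1024, 519 and 647 in MG (-1.43 ± 0.35, adjusted p = 0.0340 with limma), and a peak 8890 bases away moved the same way. Cd81, a tetraspanin gene, had 216, 168 and 127 in BMDM, against 393, 436 and 328 in MG. Tmem119, a microglia marker, went the other way at an intergenic peak at -4670 bases from its start, with 413, 252 and 159 in BMDM, against 73.8, 73.8 and 43.7 in MG.

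The pan-myeloid list had 76 shared peaks, 3 of them higher in BMDM (peaks over 1 kb from the start of Syk, Lcp1 and Cybb, by 2.01, 1.67 and 1.64) and 1 higher in MG, beside the 2.76% and 1.05% of all shared peaks. The 1 higher in MG was the Mertk promoter printed above, with 413, 378 and 236 normalized counts in BMDM, against 1034, 748 and 771 in MG (-1.20 ± 0.33, adjusted p = 0.0435 with limma). Ltf (lactoferrin, a granule protein of neutrophils) had 131, 164 and 77.9 in BMDM, against 23.0, 41.0 and 30.1 in MG, while the neutrophil list summed to 3487, 3883 and 2544 in BMDM and 2623, 2293 and 2094 in MG. Of the list's 8 tested promoters 3 (S100a8, Ltf and Mmp8) were called higher in BMDM and 0 in MG. Over all tested promoters the shares were 2.12% and 3.25%. S100a8 and Mmp8 had no shared region, and their promoters were low in MG, with means of 11.25 and 19.3 normalized counts. The Ltf peak lay at -961 bases from a start, and the RefSeq window of Ltf was called in no list. The part of neutrophils was not tested. In the machinery, glycolysis and immediate early lists together 1 shared peak was called, an intergenic one 87766 bases from Ndufa10, with 182, 221 and 85.1 in BMDM, against 41.3, 43.7 and 37.9 in MG.

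Some genes gathered many shared regions. Of 10529 genes with a shared peak 2833 had at least 2, 276 at least 5 and 18 at least 10. Chd7, a chromatin remodeller, had 15 of its 65 table peaks shared over 382 kb, with summed normalized counts of 7828, 6823 and 4509 in BMDM and 8304, 6475 and 6249 in MG. Rreb1, a zinc finger factor gene, and Pisd-ps3 had 13 each and Zmiz1, a coregulator gene, 11. Of the 13 Pisd-ps3 peaks 7 were called higher in BMDM and 0 in MG. They lie on the unplaced contig named above, where reads may be split or piled up, so that these calls are uncertain. Within a gene with many shared regions the peaks did not move as 1 unit: relative differences in Chd7 ran between -0.89 and 2.15, with 1 peak called. Runx3, a RUNX factor gene, had 13 shared peaks of 30 over 153 kb, and all 13 had a difference above 0, between 0.11 and 1.67. Their sums were 7123, 6958 and 4002 in BMDM and 4008, 3184 and 3265 in MG, with BMDM 3 just under MG 1, and 2 of the 13 peaks were called higher in BMDM. Of all shared peaks 2.76% were called higher in BMDM and 1.05% in MG, and of those away from promoters 6.36% and 0.772%.

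The 3 widest shared regions were of another kind. The first and the third lay on the mitochondrial chromosome, at chrM:118-6527 and chrM:10891-16167, and the second was chr17:39843057-39848765, which RefSeq annotates with the ribosomal RNA loci Rn18s-rs5 and AY036118. The lists gave them low fold enrichments over local background by the authors' caller, 2.02 to 2.42 over all 6 libraries. Mitochondrial DNA carries no nucleosomes and ribosomal RNA genes are present in many copies, so that read depth there need not follow open chromatin per site. These 3 regions had no table peak. Of the 499 shared regions without a table peak 482 lay on the autosomes or X, 9 on Y, 2 on the mitochondrial chromosome and 6 on contigs, and these could not be annotated or tested here.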

How the data were processed

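ATAC-seq libraries of BMDM and MG, 3 each, were analysed from the deposited tables. Per the submitters' processing notes, the build was mm10 and the tools included MACS2 2.1.1.20160309 and DESeq2 1.36.0, with Bowtie2 2.4.1, cutadapt 1.8.1 and ChIPseeker 1.32.1. For none of them is a setting given in the sources used here. Peak lists, 1 per library, hold a fold enrichment (a ratio over local background) and −log10 p and q values that the authors' caller gave each peak, per the file headers and their layout. The authors' deposited table gives each peak an annotation, size-factor normalized signal per library on a stabilized log2 scale, a log2 fold change, a p-value and an adjusted p-value. It has 93084 lines, of which 155 repeat another and 65 lack an annotation, which left 92864 peaks. Another 8 columns of values, whose names could not be tied to these 6 libraries, were not used.

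The deposited log2 values were turned back into normalized counts (means within 2.4e-06 of the deposited ones, as a relative difference). Divided by a step per library, 99.9989% to 100% of a library's values were whole reads within 0.02. Reads in table peaks ranged from 4910448 to 23601865 per library, and no separate input was used. Regions were merged at 1 shared base. Differences are BMDM minus MG, from limma 3.58.1 (trend) in R 4.3.3 on log2(normalized count + 1) over the 87944 peaks with a mean of at least 10, with Benjamini-Hochberg adjusted p under 0.05. The deposited columns are normalized, so that a count model was not the test. Tests were checked on simulated data. Python 3.11.15 with pandas 2.3.3, numpy 2.4.6, scipy 1.17.1 and matplotlib 3.10.9 did the rest.

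The members and gene lists were chosen with earlier results of these data known. Named peaks were the 8 with the largest difference in each direction among called peaks without overlap of the groups and with a mean above the median tested peak, the 6 highest, the 6 promoters with the smallest range, the 5 genes with most shared peaks, the 3 widest regions and up to 3 promoters per list. Cd68, Spi1, Hk2, Slc16a3, Sall1, Sox10, Cxcr4 and called list members were added after their values were seen. Some genes that meet these rules are not reported. RefSeq promoter windows (GRCm38.p6) were matched by symbol.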

Additional observations from a re-analysis of the deposited data

How the results depend on the processing

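Membership, levels and calls were recomputed under other settings. The number of shared regions was 16129, and it was 15026 when listed peaks needed a −log10 q of at least 5, 10909 with lists cut to the same length and 16140 to 26434 with a library left out, the highest without BMDM 3. Promoters were 61.9% of shared peaks, 64.0% at the stricter q, 76.7% with lists cut to the same length and 46.3% to 61.9% with a library left out. The mean share of reads in shared regions was 66.0%, 54.5% with lists cut to the same length and 66.0% to 77.1% with a library left out. An overlap of 100 bases and summits widened by 250 bases moved none of these 3 beyond their limits. Without BMDM 3, 13 promoters of the microglia list were shared and the ETS letters were in 8.90% of promoters. That alternative was chosen after seeing the data.

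Calls among shared peaks were 431 higher in BMDM and 164 in MG. They were 1428 and 451 with library totals, 787 and 170 with TMM factors, 1866 and 590 with loess normalization, and 0 and 0 with voom weights. With a library left out they were 0 to 1292 and 0 to 370. The replicate block gave 1100 and 534, but same-numbered libraries deviated together in 2 of 3 pairs only (correlations of 0.435, -0.0616 and 0.360), so that the numbers are not taken as pairs, and BMDM 2 and BMDM 3 correlated best with other numbers. The median relative difference was -0.09 and ran between -0.27 and 0.11 over the alternatives. Of 512 recomputed differences at 32 named peaks, 371 stayed past the threshold, 141 did not and 0 reversed. All 32 were lost with voom weights and without BMDM 1, BMDM 2 or MG 3, and 8 were lost without BMDM 3. The cause was not tested. BMDM 3 limited membership most, with the fewest reads and the lowest fold enrichment, and their parts were not tested.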

Other observations

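Among other genes with many shared peaks, chosen after their values were seen, Cxcr4 had 10 of its 30 table peaks shared over 285 kb. Cxcr4 encodes the chemokine receptor for CXCL12. Summed over these peaks it had 5659, 4147 and 2717 normalized counts in BMDM, all above 2080, 1152 and 1501 in MG. Relative log2 differences of the 10 peaks ran between 0.95 and 2.19, and 3 were called higher in BMDM (limma). Beside this, 2.76% of all shared peaks were called higher in BMDM and 1.05% in MG, and 6.36% and 0.772% of those away from promoters. Ptk2b, a kinase of the focal adhesion kinase family, also had 10 shared peaks with differences above 0, between 0.22 and 1.16, of which limma called 0 and 1 had an unadjusted p under 0.05. Bach2 and Etv6, both transcriptional repressors, had 10 each with differences on both sides of 0.

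The Cd3d and Il7r peaks within 1 kb of a start, of genes known from lymphoid cells, had values of 621, 622 and 337 and of 256, 297 and 96.0 normalized counts in BMDM, against 420, 226 and 336 and 98.4, 95.7 and 90.4 in MG. Neither passed the test. Shared regions were spread over the genome, making up 15.2% of merged regions on chromosome 18 and 21.3% on chromosome 7.

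Membership turns on the BMDM 3 list, and a region outside the set is not shown to be closed. Overlap of peaks does not show that the same cells were open. Peaks carry the gene name that the authors' annotation gave, and sequence was analysed at RefSeq promoters only. With 3 libraries a group, a difference that missed the threshold is not shown to be absent.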
